A study of Drosophila melanogaster with 11 samples.

Results

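Gene expression in the salivary glands of dCap-D3 mutant larvae was set against that in wild-type glands across all genes. The comparison rests on the 6 salivary libraries among the 11 libraries of the series, taken by their labels. Mutant replicates 1 to 3 are libraries 25 to 27, and wild-type replicates 1 to 3 are libraries 22 to 24. The mutant larvae carried the allele c07081 on both copies of dCap-D3 (labelled w;dCap-D3c07081/c07081), and the wild-type strain was w1118, so both genotypes carry a w mutation by their labels. All were 3rd instar Drosophila melanogaster larvae from stocks kept at 25 C, and each library pooled 50 tissues. The mutation was present in the whole larva and not in the gland alone, so changes that arose in gland cells and changes that reached them from other tissues cannot be told apart. The libraries were non-directional and were read as paired ends of 50 bp, so reads of genes that overlap on opposite strands cannot be assigned with certainty. Wing disc libraries of the same genotypes (2 mutant, 3 wild type, directional) are given beside a few results.

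dCap-D3 (Cap-D3 in the count table) is a subunit of condensin II, a ring-shaped complex that folds and compacts chromosomes. Larval salivary gland cells copy their DNA without dividing, and the many aligned copies form giant polytene chromosomes. The gland makes saliva proteins while the larva feeds, and late in the 3rd instar, under the hormone ecdysone, it makes the glue proteins that later fix the pupa to its support.

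The mutant libraries held 54153356, 70369254 and 63398807 counts, and the wild-type libraries 52483185, 57349302 and 61644480. Levels are CPM, counts per 1000000 counts of the library size, which was scaled with the trimmed mean of M-values, and a count of 0 allows up to 0.0415 to 0.0545 CPM (3 counts, counting error only). The 10 most abundant genes took 38.8% to 43.5% of the counts in mutant libraries and 45.5% to 48% in wild-type libraries. By the log2 distance over the 500 most different genes of each pair, mutant libraries lay 1.79 to 2.65 apart, wild-type libraries 2.83 to 3.6, and libraries of different genotype 3.58 to 5.08. Genotypes were compared with edgeR's quasi-likelihood F-test with Benjamini-Hochberg adjustment, and a gene with an adjusted p of at most 0.05 was called higher or lower in the mutant. Behind a gene's levels, the value after "log2" is the log2 fold change of mutant over wild type, with its standard error. The labels do not say that samples came from separate cultures, so p-values measure only the spread between these samples.

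The mutated gene and the tissue label were checked first. Cap-D3 (FBgn0051989, 2L, 5525905 to 5535958, build BDGP6) had 3, 4 and 4 counts in mutant replicates 1 to 3, against 268, 240 and 299 counts in wild-type replicates 1 to 3. Its level was 0.0578 ± 0.00772 CPM in the mutant and 4.8 ± 0.422 CPM in wild type (SD, n = 3 each; log2 -6.33 ± 0.22, adjusted p = 0.000143). It was near the floor in all mutant libraries, and the call held when any 1 library was left out. Reads can be shared with CG31648 and CG31915, which overlap Cap-D3 in the same orientation, and with tomb and CG7277, which lie antisense to it. The glue gene Sgs3 (3L, 11512221 to 11513402), the defining gland marker, had 59073, 78902 and 98297 CPM in mutant libraries and 87865, 111546 and 115771 CPM in wild-type libraries. It was among the most abundant transcripts in all 6, and the genotypes overlapped (log2 -0.42 ± 0.21, adjusted p = 0.241). Of 9 tested members of the salivary gland list 0 were called higher and 1 lower (11.1% called, beside 10.7% over all tested genes). The lower one was PH4alphaSG2, with 31.4, 49.1 and 42.5 CPM in mutant libraries and 212, 185 and 245 CPM in wild-type libraries (log2 -2.38 ± 0.21, adjusted p = 0.00259). Its call held without any 1 library. The gland factor genes fkh, sage, CrebA and sens were all measured in both genotypes, and none of these 4 was called. The least abundant of them, sens, averaged 51.3 ± 9.98 CPM in the mutant and 51.2 ± 9.99 CPM in wild type, and the most abundant, sage, 697 ± 102 CPM in the mutant and 963 ± 115 CPM in wild type.

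Digestive transcripts set wild-type replicates 1 and 2 apart from the other 4 libraries. The sum over 26 genes of the trypsin and Jonah families, secreted digestive proteases of the gut, was 1.93, 4.93 and 1.96 CPM in mutant replicates 1 to 3, against 1278, 13190.0 and 4.53 CPM in wild-type replicates 1 to 3. Wild-type replicate 3 was thus at the level of the mutants, and replicate 2 was the highest. The Jonah protease gene Jon65Aiv (3L, 6039155 to 6040135) had 0.602, 1.52 and 0.714 CPM in mutant libraries and 495, 6132 and 1.78 CPM in wild-type libraries. The lysozyme gene LysB had 0.189, 0.816 and 0.349 CPM in mutant libraries and 109.7, 2633 and 0.749 CPM in wild-type libraries. Both followed the protease sum. The lipase gene mag was at 0, 0.0692 and 0 CPM in mutant libraries and 0.576, 189 and 0 CPM in wild-type libraries, so it was high in wild-type replicate 2 alone.

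A wider set was picked after the values were seen: 196 genes with at least 5 CPM in wild-type replicate 2 and more than 10 times the level there of wild-type replicate 3 and of every mutant library. They summed to 63.5, 55.5 and 52.5 CPM in mutant replicates 1 to 3, against 4307, 31810.0 and 59.5 CPM in wild-type replicates 1 to 3. Of the 196, 187 were also higher in wild-type replicate 1 than in wild-type replicate 3 and all mutants. Only 72 of the 196 passed the filter on low counts, which asks for enough counts in at least 3 libraries. Genes high in wild-type replicates 1 and 2 alone could thus go untested, such as alphaTry, with 14012 and 27521 counts there. Of the 72 tested, 4 were called, all lower: CG43896, CG7715, Lip3 and CG5921. Calls among them that ended without 1 library were CG43896 (adjusted p = 0.164 without mutant replicate 3), CG7715 (adjusted p = 0.19 without mutant replicate 3), Lip3 (adjusted p = 0.133 without mutant replicate 3) and CG5921 (adjusted p = 0.179 without mutant replicate 3). The broader list of 58 gut enzymes summed to 997, 563 and 814 CPM in the mutant and 2277, 20360.0 and 564 CPM in wild type. Of its 21 tested members 2 were called higher and 2 lower. Its median log2 fold change was -3.68, and 0.24 without wild-type replicates 1 and 2. Whether these transcripts came from attached gut tissue was not tested.

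**Figure D1:**
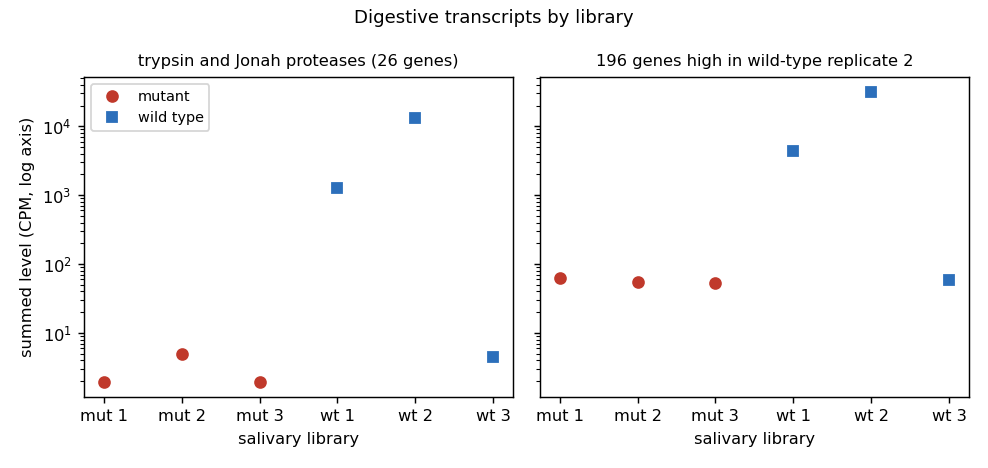
Summed level (CPM, log axis) per salivary library of the 26 trypsin and Jonah genes (left) and of the 196 genes picked for being high in wild-type replicate 2 (right), mutant as red circles and wild type as blue squares. Wild-type replicates 1 and 2 stand above the other 4 libraries, and wild-type replicate 3 lies with the mutants.

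Across all genes, 961 of 9006 tested genes were called (10.7%), 514 of them higher in the mutant (5.71%) and 447 lower (4.96%). Called higher genes had a median log2 fold change of 1.33 and called lower genes one of -1.60, while the median of all tested genes was -0.04. A change of at least 2-fold was seen in 309 higher (3.43%) and 321 lower genes (3.56%), and of at least 8-fold in 92 higher and 96 lower genes. In all 961 the 3 mutant libraries lay on 1 side of the 3 wild-type libraries, whereas among all tested genes 17.4% were higher and 19% lower without overlap. In 262 of the 447 lower calls wild-type replicate 3 stood over 2 times as high as every mutant library. That replicate was part of the fit that made these calls, so the count is not independent of them. With wild-type replicates 1 and 2 both left out, 959 of the 961 genes still had a value, whose direction is fixed by the lack of overlap. Their log2 fold changes were 0.98 of the original in the median, but with a single wild-type library, assumed to vary like the mutants, 88 were still called.

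The share of called genes changed little with level, but its direction did. Tested genes were put in 4 equal groups by mean level. In the lowest group (0.11 to 2.53 CPM) 96 were called higher and 171 lower. In the highest group (at least 37.9 CPM) 154 were called higher and 49 lower. The 2 middle groups had 115 higher and 140 lower, and 149 higher and 87 lower. The share called was 11.9%, 11.3%, 10.5% and 9.01% from the lowest group to the highest. Genes that overlap another on the opposite strand made up 35.7% of the called genes and 41.9% of the tested genes.

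The number of calls varied with the libraries in the fit. Of the 961, 240 were called in all 6 fits that left out 1 library (150 higher and 90 lower). Without mutant replicate 1 the calls were 489 higher and 582 lower, more in all than with every library. Without mutant replicate 3 the calls were 207 higher and 103 lower, and without mutant replicate 2 they were 232 higher and 129 lower. Without wild-type replicate 3, the wild-type library low in digestive transcripts, 233 were higher and 345 lower, so the share of higher calls was 40.3%, against 53.5% with all libraries. Without wild-type replicate 1 there were 307 higher and 236 lower calls, and without wild-type replicate 2 there were 186 higher and 173 lower. An adjusted p given for a gene "without" a library is the highest over these 6 fits.

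**Figure D2:**
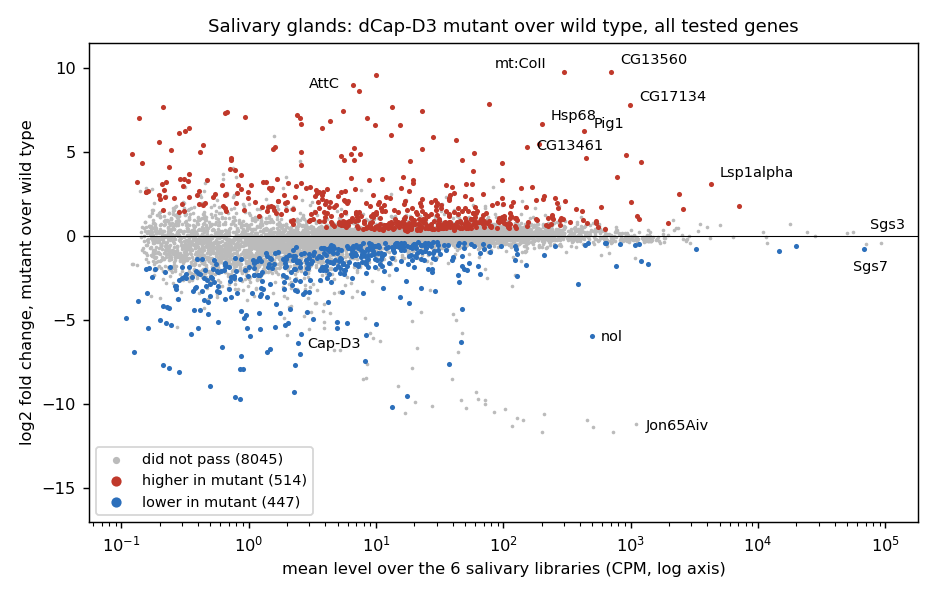
Log2 fold change of mutant over wild type against mean level over the 6 salivary libraries (CPM, log axis) for the 9006 tested genes, with 514 called higher in red and 447 called lower in blue. Low genes were more often called lower and abundant genes more often higher, and the grey points with large negative values at high level include digestive genes such as Jon65Aiv.

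Glue proteins are the main late product of the gland. Of the 7 tested genes of the glue list, 0 were called higher and 2 lower (Sgs7 and Sgs8), and the glue list summed to 253800.0, 301700.0 and 350200.0 CPM in mutant libraries, against 324400.0, 399800.0 and 412800.0 CPM in wild-type libraries. Sgs7 (3L, 11509861 to 11510247) had 47281, 47400.0 and 55018 CPM in mutant libraries and 75162, 90142 and 90064 CPM in wild-type libraries. Sgs8, its neighbour, had 16203, 15129 and 16001 CPM in mutant libraries and 23850.0, 21800.0 and 25284 CPM in wild-type libraries. Both were lower in every mutant library, by less than 2-fold (log2 -0.77 ± 0.11, adjusted p = 0.0119 for Sgs7 and log2 -0.58 ± 0.09, adjusted p = 0.0132 for Sgs8). Sgs5 had 54348, 58688 and 63620.0 CPM in mutant libraries and 70511, 86503 and 90252 CPM in wild-type libraries; the groups did not overlap, but the test was not passed (log2 -0.49 ± 0.12, adjusted p = 0.0548). Sgs4 averaged 26266 ± 5809 CPM in the mutant and 22218 ± 3722 CPM in wild type (log2 0.24 ± 0.20, adjusted p = 0.469). Sgs1 averaged 11850.3 ± 3056 CPM in the mutant and 10129 ± 1092 CPM in wild type (log2 0.23 ± 0.21, adjusted p = 0.511), and Eig71Ee averaged 60475 ± 11573 CPM in the mutant and 50399 ± 9108 CPM in wild type (log2 0.26 ± 0.19, adjusted p = 0.411; SD, n = 3 each). The 3 genes with lower levels in every mutant library were thus Sgs5, Sgs7 and Sgs8. The calls of Sgs7 and Sgs8 ended without 1 library: Sgs7 (adjusted p = 0.0713 without mutant replicate 2) and Sgs8 (adjusted p = 0.091 without mutant replicate 3).

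Some small genes moved further than the glue genes did. CG7587 and CG7606, which lie on either side of Sgs5 on 3R, both fell. CG7587 (3R, 17594386 to 17595057) had 534, 422 and 1031 CPM in mutant libraries and 1866, 2205 and 2151 CPM in wild-type libraries (log2 -1.65 ± 0.34, adjusted p = 0.035). CG7606 averaged 641 ± 107 CPM in the mutant and 1789 ± 545 CPM in wild type (SD, n = 3 each; log2 -1.48 ± 0.27, adjusted p = 0.0226). The adjacent genes CG17362 and CG9040 on 3L also fell. CG17362 (3L, 13986620 to 13987184) had 74.8, 127 and 86.7 CPM in mutant libraries and 733, 432 and 868 CPM in wild-type libraries (log2 -2.82 ± 0.34, adjusted p = 0.00648). CG9040 averaged 348 ± 81.4 CPM in the mutant and 1192 ± 435 CPM in wild type (log2 -1.78 ± 0.32, adjusted p = 0.0227). Both overlap CG17364 on the opposite strand. Leaving out 1 library ended the calls of CG7587 (adjusted p = 0.111 without wild-type replicate 2), CG7606 (adjusted p = 0.0971 without mutant replicate 2) and CG9040 (adjusted p = 0.0925 without mutant replicate 2).

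In a cluster of 5 small genes on 3L, 15049179 to 15052490, neighbours went opposite ways. CG12310, one of the most abundant transcripts of the gland, had 11062, 10598 and 8781 CPM in mutant libraries and 20384, 16402 and 19613 CPM in wild-type libraries and fell (log2 -0.89 ± 0.13, adjusted p = 0.013). CG43679 next to it averaged 2416 ± 366 CPM in the mutant and 4081 ± 702 CPM in wild type and fell (log2 -0.76 ± 0.17, adjusted p = 0.0459). CG13461, the next gene, had 327, 342 and 227 CPM in mutant libraries and 3.35, 8.2 and 10.9 CPM in wild-type libraries. It rose (log2 5.32 ± 0.51, adjusted p = 0.00344), the lowest mutant library standing far above the highest wild-type library. The remaining genes of the cluster, CG43678 (log2 0.75 ± 0.46, adjusted p = 0.32) and CG18581 (log2 -0.40 ± 0.23, adjusted p = 0.292), did not pass. All 5 lie within Sytbeta on the same strand, so reads can be shared with it. The call of CG13461 held without any 1 library, while those that ended were CG12310 (adjusted p = 0.0699 without mutant replicate 2) and CG43679 (adjusted p = 0.200 without mutant replicate 3).

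The intermoult genes, which the gland makes before the glue, rose where they were called: 2 of 5 tested members, Pig1 and ng2. Without overlap, 3 of the 5 were higher and 1 lower in the mutant, beside 17.4% and 19% of all tested genes. The lower member was not called and is not described below. Pig1 (X, 3248600 to 3249289) had 839.9, 943 and 767 CPM in mutant libraries and 10.4, 10.6 and 13 CPM in wild-type libraries, and its call held without any 1 library. Its neighbour Sgs4 averaged 26266 ± 5809 CPM in the mutant and 22218 ± 3722 CPM in wild type and was not called. The nearby new glue genes differed among themselves. ng2 had 210.4, 464 and 210.4 CPM in mutant libraries and 45.6, 23.4 and 47.5 CPM in wild-type libraries (log2 2.93 ± 0.45, adjusted p = 0.0151; adjusted p = 0.0505 without wild-type replicate 2). ng1 had 62.2, 158 and 52.8 CPM in mutant libraries and 31.3, 11.4 and 33 CPM in wild-type libraries (log2 1.85 ± 0.58, adjusted p = 0.0988). ng3, the most abundant of them, averaged 1546 ± 713 CPM in the mutant and 1209 ± 455 CPM in wild type, with overlapping groups (log2 0.35 ± 0.42, adjusted p = 0.611). In ng1, ng2 and ng3 mutant replicate 2 was the highest of the mutants and wild-type replicate 2 the lowest of the wild types. All these genes lie within dnc, partly on its opposite strand.

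Some of the largest differences in level were in genes with no name beyond a number. CG17134 (2L, 10820705 to 10821967) had 2016, 2567 and 1343 CPM in mutant libraries and 9.29, 3.67 and 13.4 CPM in wild-type libraries (log2 7.81 ± 0.65, adjusted p = 0.0022). CG13560 (2R, 23747560 to 23748477) had 1185, 2191 and 822 CPM in mutant libraries and 2.25, 0.891 and 1.62 CPM in wild-type libraries. Both were among the more abundant transcripts of the mutant gland and far lower in wild-type glands, and both calls held without any 1 library. CG17134 overlaps Nos on the opposite strand. nol (3L, 11130835 to 11131402) went the other way, with 28, 13 and 7.17 CPM in mutant libraries and 1537, 396 and 1002 CPM in wild-type libraries (adjusted p = 0.0618 without mutant replicate 2). Its neighbour CG32074, had 0.0344, 0.083 and 0.0332 CPM in mutant libraries and 4.7, 0.509 and 2.04 CPM in wild-type libraries (log2 -5.50 ± 0.99, adjusted p = 0.0227; adjusted p = 0.112 without mutant replicate 3). nol lies within NaPi-III on the same strand, and CG32074 on the opposite strand. A group of 3 small genes close by moved opposite to nol. CG32071 had 62.5, 329.9 and 66.2 CPM in mutant libraries and 0.847, 0.818 and 0.313 CPM in wild-type libraries (log2 7.86 ± 1.01, adjusted p = 0.0083). CG32073 (log2 7.70 ± 1.68, adjusted p = 0.0400; adjusted p = 0.141 without wild-type replicate 2) and CG12522 (log2 8.99 ± 1.73, adjusted p = 0.0279; adjusted p = 0.115 without wild-type replicate 2) rose with it, all 3 being highest in mutant replicate 2.

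**Figure D3:**
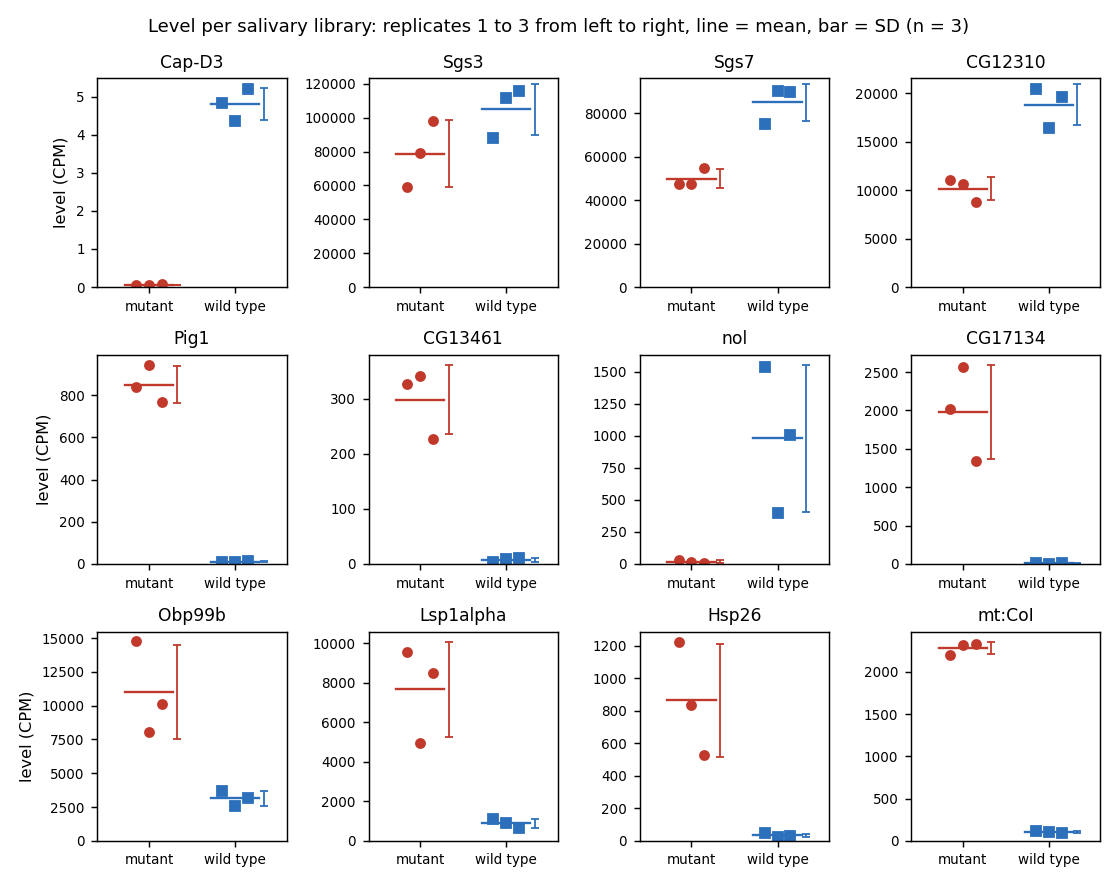
Level (CPM, linear axis from 0) of 12 genes in each salivary library, with mutant replicates 1 to 3 on the left of each panel in red and wild-type replicates 1 to 3 on the right in blue, the line being the mean and the bar the SD (n = 3). Cap-D3 is near 0 in all mutant libraries, and Sgs3 overlaps between genotypes. Pig1, CG13461 and CG17134 lie low on their axes in all wild-type libraries, though they were measured there.

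A stricter view took called genes with at most 0.5 CPM in every library of 1 genotype and at least 5 CPM in every library of the other. There were 8 such genes present in the mutant gland (AttC, CG32581, CG33267, CG4842, CR44383, CR45045, Cyp4p2 and Cyp6a17) and 3 present in the wild-type gland (CG31431, CG5039 and IM14). Their log2 fold changes depend on how near 0 the low group lies, so levels and counts are given. CG32581 (X, 15796908 to 15799162) had 19.5, 19.6 and 20.3 CPM in mutant libraries and 0.018, 0.0545 and 0 CPM in wild-type libraries. CR44383, a pseudogene beside CG32581, had 7.38, 7.36 and 7.57 CPM in mutant libraries and 0.108, 0.109 and 0.0348 CPM in wild-type libraries. Both were even among mutant replicates. The same held of the P450 gene Cyp4p2, with 16.9, 17 and 16.3 CPM in mutant libraries and 0.144, 0.164 and 0.0696 CPM in wild-type libraries. CG33267 was uneven instead, with 21.6, 98.4 and 18.1 CPM in mutant libraries and 0.288, 0.200 and 0.313 CPM in wild-type libraries. The attacin gene AttC had 901, 1080 and 815 counts in mutant libraries and 3, 1 and 2 counts in wild-type libraries.

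Of the 8 genes present in the mutant gland, 7 were also higher without overlap in mutant wing discs, where 14.4% of tested genes were. In wing discs CG32581 had 35.2 and 34.5 CPM in the 2 mutant libraries and 0, 0.0164 and 0.00588 CPM in the 3 wild-type libraries. Cyp4p2 had 197 and 179.7 CPM in mutant wing discs and 0.143, 0.164 and 0.0706 CPM in wild-type wing discs, and Cyp6a17 had 26.6 and 23.3 CPM in mutant and 0.0319, 0 and 0 CPM in wild-type wing discs. These genes were thus near absent from wild-type libraries of both tissues. The exception was CG33267, with 0.867 and 0.761 CPM in mutant and 0.909, 0.573 and 0.476 CPM in wild-type wing discs. Of the 3 genes present in the wild-type gland, CG5039 had 0.344, 0.235 and 0.399 CPM in mutant glands and 10.7, 11.9 and 12.2 CPM in wild-type glands, and 3.11 and 3.42 CPM in mutant and 8.91, 9.47 and 5.13 CPM in wild-type wing discs. CG31431 had 0.464, 0.0277 and 0.116 CPM in mutant glands and 5.85, 6.09 and 6.56 CPM in wild-type glands (adjusted p = 0.112 without mutant replicate 3). The immune-induced peptide gene IM14 had 0, 8 and 10 counts in mutant glands and 592, 1149 and 989 counts in wild-type glands. The labels do not say that the strains share a genetic background, so effects of the allele and of the background cannot be told apart.

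**Figure D4:**
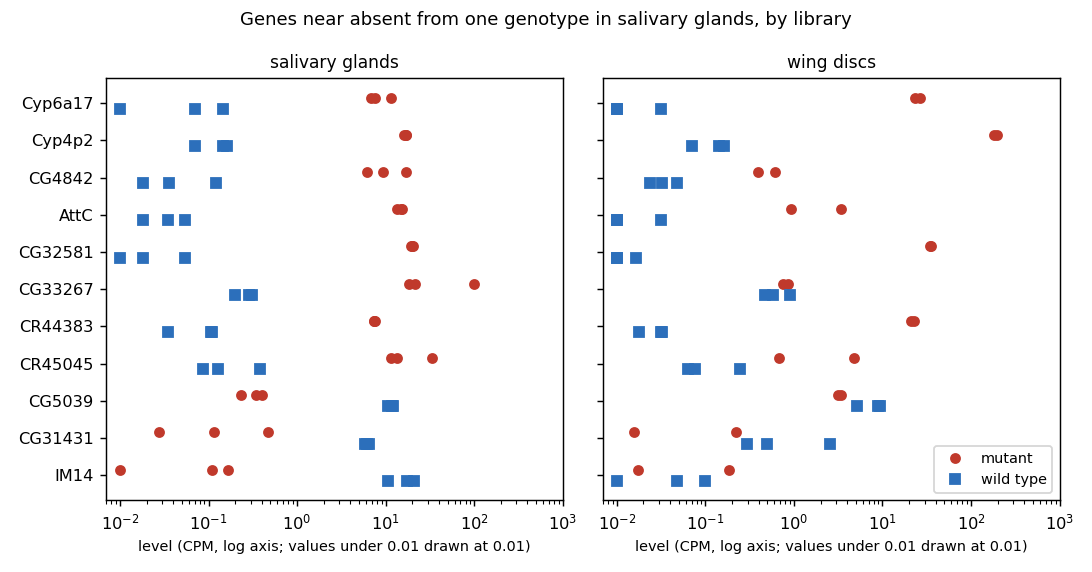
Level (CPM, log axis, values under 0.01 drawn at 0.01) per library of the 8 genes present in mutant glands and the 3 present in wild-type glands, in salivary glands (left) and wing discs (right), with mutant libraries as red circles above wild-type libraries as blue squares. In salivary glands the genotypes are separate for all 11, and CG33267 overlaps between genotypes in wing discs.

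**Figure D5:**
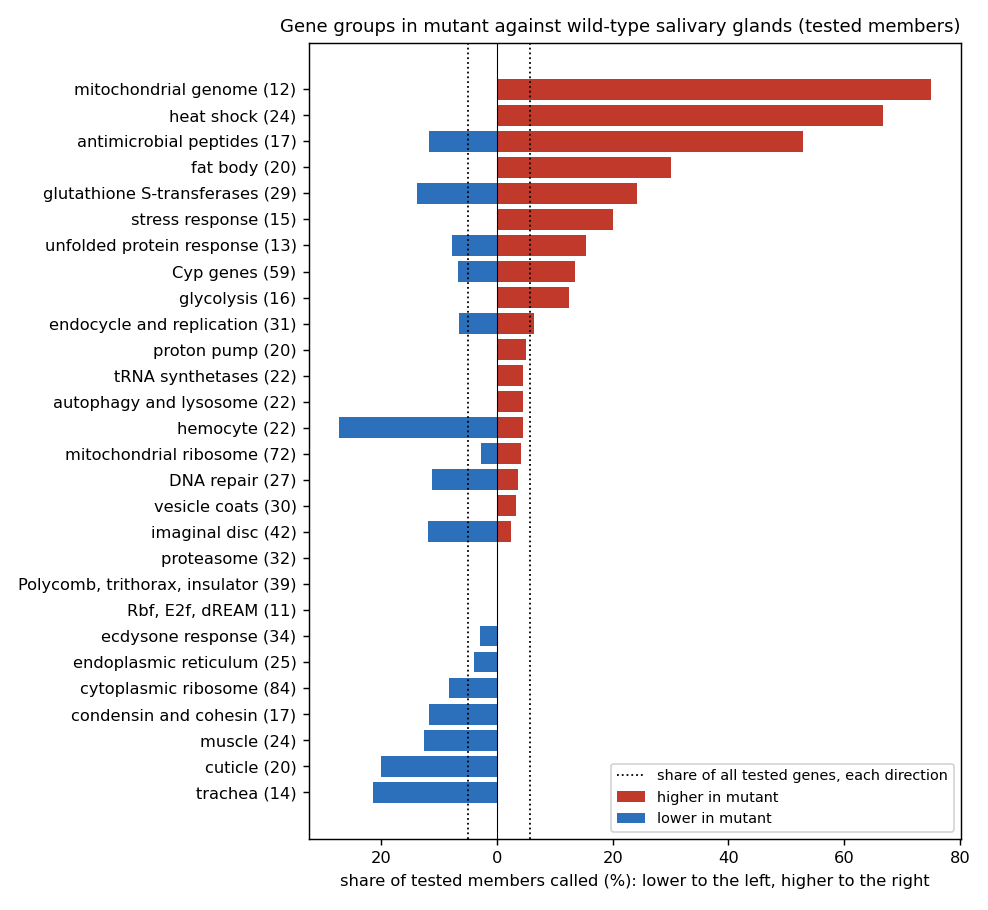
Share of the tested members of each gene group called higher (red, to the right) or lower (blue, to the left) in mutant glands, in percent, with the number of tested members in parentheses and dotted lines at the share over all tested genes, 5.71% higher and 4.96% lower. Genes of the mitochondrial genome, heat shock genes and antimicrobial peptide genes have the largest shares called higher among the groups drawn.

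Chaperone genes, which help proteins fold or refold, were mostly higher in the mutant. Of 24 tested members of the heat shock list 16 were called higher and 0 lower, with a median log2 fold change of 0.96, and 1.03 without wild-type replicates 1 and 2. The list summed to 20700.0, 21900.0 and 19050.0 CPM in mutant libraries and 10010.0, 14920.0 and 14500.0 CPM in wild-type libraries. Of the 16, 8 were called in all 6 fits without 1 library. Hsp83, the fly's Hsp90, had 2255, 1565 and 1039 CPM in mutant libraries and 354, 438 and 403 CPM in wild-type libraries (log2 2.02 ± 0.29, adjusted p = 0.0123). The Hsp40-type co-chaperone gene DnaJ-1 averaged 419.7 ± 35.5 CPM in the mutant and 87.4 ± 25.1 CPM in wild type (log2 2.26 ± 0.24, adjusted p = 0.00458). Hop, which links Hsp70 to Hsp90 (log2 0.89 ± 0.13, adjusted p = 0.0128), the constitutive Hsc70-4 (log2 1.02 ± 0.16, adjusted p = 0.0163) and the heat shock factor gene Hsf (log2 0.58 ± 0.09, adjusted p = 0.0139) rose less. Among small heat shock genes Hsp23 had 4308, 3690.1 and 3666 CPM in mutant libraries and 792, 1561 and 1393 CPM in wild-type libraries (log2 1.64 ± 0.26, adjusted p = 0.0168), and Hsp27 rose by 1.20 (adjusted p = 0.0149). With 1 library left out, calls ended for Hsp83 (adjusted p = 0.0571 without mutant replicate 2), Hop (adjusted p = 0.0523 without mutant replicate 3), Hsc70-4 (adjusted p = 0.0738 without mutant replicate 2), Hsf (adjusted p = 0.0657 without mutant replicate 3), Hsp23 (adjusted p = 0.076 without mutant replicate 3) and Hsp27 (adjusted p = 0.078 without mutant replicate 3).

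Chaperones of the organelles differed. The chaperone of the endoplasmic reticulum, Hsc70-3 (BiP), averaged 2902 ± 411 CPM in the mutant and 2863 ± 239 CPM in wild type (log2 0.02 ± 0.13, adjusted p = 0.941). The mitochondrial Hsc70-5 rose (log2 0.89 ± 0.19, adjusted p = 0.0379), and the mitochondrial chaperonin Hsp60 was not called (log2 0.18 ± 0.21, adjusted p = 0.589). Of 25 tested genes of protein entry and folding in the endoplasmic reticulum 0 were called higher and 1 lower (Srp54). That is 4%, beside 10.7% called over all tested genes. In the unfolded protein response list, 2 of 13 tested members were called higher, the kinase gene PEK (log2 0.50 ± 0.08, adjusted p = 0.0176) and the ATF4 gene crc (log2 0.53 ± 0.09, adjusted p = 0.0212), and 1 lower, the sensor gene Ire1 (log2 -0.84 ± 0.19, adjusted p = 0.0456). In the Hsp70 cluster on 3R, 12502510 to 12511461, Hsp70Bb had 71.1, 50.2 and 45.5 CPM in mutant libraries and 1.55, 0.273 and 0.923 CPM in wild-type libraries (log2 5.92 ± 0.61, adjusted p = 0.00448). Hsp70Bc averaged 26 ± 6.69 CPM in the mutant and 0.403 ± 0.285 CPM in wild type (adjusted p = 0.00387), while Hsp70Ba averaged 0.243 ± 0.114 CPM in the mutant and 1.06 ± 0.547 CPM in wild type (log2 -2.12 ± 0.57, adjusted p = 0.0672). These copies are near identical, so reads can be shared between them. Calls that ended without 1 library were those of Hsc70-5 (adjusted p = 0.131 without wild-type replicate 2), Srp54 (adjusted p = 0.18 without mutant replicate 3), PEK (adjusted p = 0.0788 without mutant replicate 2), crc (adjusted p = 0.0965 without wild-type replicate 2) and Ire1 (adjusted p = 0.195 without mutant replicate 3).

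Antimicrobial peptides are small secreted proteins, made under the Imd and Toll pathways, that kill bacteria and fungi. Of 17 tested members 9 were called higher and 2 lower, with a median log2 fold change of 2.84, and 2.82 without wild-type replicates 1 and 2. Of the 11 calls 3 held in all 6 fits without 1 library. They summed to 399.9, 402 and 476 CPM in mutant libraries and 93.6, 122 and 108 CPM in wild-type libraries. Adjacent genes rose together at 2 places on 2R. Dro, AttA and AttB lie side by side (14745961 to 14750165). Dro had 7.34, 6.92 and 22.8 CPM in mutant libraries and 0.721, 0.182 and 0.348 CPM in wild-type libraries (log2 4.88 ± 0.74, adjusted p = 0.0144). AttA had 22.1, 13.1 and 4.38 CPM in mutant libraries and 0.576, 0.236 and 0.226 CPM in wild-type libraries (log2 5.24 ± 0.75, adjusted p = 0.0122). Within the mutants the order differed: Dro was highest in mutant replicate 3 and AttA in mutant replicate 1. Their calls ended without 1 wild-type library: Dro (adjusted p = 0.0588 without wild-type replicate 3), AttA (adjusted p = 0.0606 without wild-type replicate 2) and AttB (adjusted p = 0.0614 without wild-type replicate 2). AttA and AttB are close copies, so reads can be shared.

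CG43071, Dpt and DptB lie side by side at 18864621 to 18867895. The diptericin gene Dpt had 50.9, 29.6 and 192 CPM in mutant libraries and 6.11, 2.36 and 3.59 CPM in wild-type libraries (log2 4.50 ± 0.85, adjusted p = 0.0268). DptB averaged 27.5 ± 13.4 CPM in the mutant and 3.83 ± 0.392 CPM in wild type (SD, n = 3 each; log2 2.84 ± 0.37, adjusted p = 0.00849). Metchnikowin (Mtk), an antifungal peptide, had 9.49, 8.27 and 42.9 CPM in mutant libraries and 2.5, 1.24 and 1.9 CPM in wild-type libraries (log2 3.42 ± 0.76, adjusted p = 0.0424), with mutant replicate 3 far above the other mutants. The cecropins did not follow: CecC fell (log2 -1.07 ± 0.24, adjusted p = 0.0435), and CecA1 overlapped between genotypes (log2 0.76 ± 0.63, adjusted p = 0.463). Unlike AttA, AttB and AttC, the attacin gene AttD fell, with 0.0344, 0.29 and 0.399 CPM in mutant libraries and 2.67, 6.07 and 7.82 CPM in wild-type libraries (log2 -4.49 ± 0.80, adjusted p = 0.0225; adjusted p = 0.0993 without mutant replicate 2). Drosomycin (Drs) had 85.4, 44.3 and 25.4 CPM in mutant libraries and 21.7, 10.4 and 9.8 CPM in wild-type libraries without passing (log2 1.89 ± 0.53, adjusted p = 0.0761). Of the immune-induced peptide list 0 of 4 tested members were called higher and 3 lower. CG15068 was one of the 3, with 0, 0.0553 and 0.0332 CPM in mutant libraries and 1.69, 0.745 and 0.923 CPM in wild-type libraries (log2 -5.10 ± 0.82, adjusted p = 0.0168). Among these, leaving out 1 library also ended the calls of Dpt (adjusted p = 0.0993 without wild-type replicate 2), Mtk (adjusted p = 0.142 without wild-type replicate 2), CecC (adjusted p = 0.159 without mutant replicate 3) and CG15068 (adjusted p = 0.111 without mutant replicate 3).

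Other stress genes were called in small numbers. Of 15 tested members of the stress list 3 were called higher and 0 lower. The TNF ligand gene egr had 41.7, 25.3 and 36.8 CPM in mutant libraries and 14.2, 8.05 and 8.15 CPM in wild-type libraries (log2 1.77 ± 0.30, adjusted p = 0.0195). TotB, a Turandot stress peptide, averaged 1.11 ± 0.667 CPM in the mutant and 0.13 ± 0.0538 CPM in wild type (log2 3.06 ± 0.59, adjusted p = 0.0278). The third was the ETS factor gene Ets21C (log2 2.34 ± 0.55, adjusted p = 0.0471). TotA, far more abundant, had 3636, 2025 and 2850.3 CPM in mutant libraries and 1828, 1059.9 and 1452 CPM in wild-type libraries; the groups did not overlap, and the test was not passed (log2 0.97 ± 0.28, adjusted p = 0.0811). All 3 calls ended without 1 library: egr (adjusted p = 0.0822 without mutant replicate 3), TotB (adjusted p = 0.112 without wild-type replicate 2) and Ets21C (adjusted p = 0.164 without wild-type replicate 2).

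Genes of the mitochondrial genome, which code for core subunits of the respiratory chain, were higher in the mutant in 9 of 12 tested cases, and 0 were lower. Their median log2 fold change was 2.12, and 2.67 without wild-type replicates 1 and 2. The sum of the mitochondrial genes was 17070.0, 17800.0 and 17480.0 CPM in mutant libraries and 12880.0, 13180.0 and 10520.0 CPM in wild-type libraries. The 5 neighbours mt:ND2, mt:CoI, mt:CoII, mt:ATPase6 and mt:CoIII (240 to 5527 of the mitochondrial genome) had the 5 highest log2 fold changes of the set and formed the longest run of called neighbours. Of the 9 calls 8 held in all 6 fits without 1 library. mt:CoI, a catalytic subunit of cytochrome oxidase, had 2203, 2322 and 2330.3 CPM in mutant libraries and 119.5, 107 and 95.7 CPM in wild-type libraries (log2 4.41 ± 0.13, adjusted p = 5.42e-05). mt:CoII had 590.0, 569 and 628 CPM in mutant libraries and 0.811, 0.745 and 0.505 CPM in wild-type libraries. mt:CoIII had 1464, 1841 and 2005 CPM in mutant libraries and 73.3, 60.9 and 52.1 CPM in wild-type libraries (log2 4.83 ± 0.21, adjusted p = 0.000311). In each of these 3 the genotypes were separated by more than 10-fold.

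The other mitochondrial genes changed less. The complex I gene mt:ND4 averaged 162 ± 25.2 CPM in the mutant and 33.1 ± 7.91 CPM in wild type (log2 2.29 ± 0.23, adjusted p = 0.00369), and mt:ND5 averaged 91.4 ± 6.73 CPM in the mutant and 45.3 ± 3.36 CPM in wild type (log2 1.01 ± 0.11, adjusted p = 0.00512). mt:Cyt-b, of complex III, averaged 609 ± 176 CPM in the mutant and 216 ± 50.4 CPM in wild type (adjusted p = 0.0271; adjusted p = 0.0986 without mutant replicate 3). The large ribosomal RNA gene mt:lrRNA, the most abundant of the set, had 11639, 11451 and 10799 CPM in mutant libraries and 12179, 12583 and 10021 CPM in wild-type libraries (log2 -0.04 ± 0.11, adjusted p = 0.85). mt:ND3 was higher without overlap and did not pass (log2 0.51 ± 0.15, adjusted p = 0.0873), and mt:ND4L overlapped (log2 -0.25 ± 0.41, adjusted p = 0.727). In wing discs mt:CoI had 2695 and 2609 CPM in mutant and 254, 275 and 66.9 CPM in wild-type libraries, and mt:CoII 2233 and 2180.4 CPM in mutant and 3.91, 4.39 and 0.976 CPM in wild-type libraries. Among nuclear genes for the same chain, of 32 tested NADH dehydrogenase subunit genes 1 was called higher (ND-13A; adjusted p = 0.143 without wild-type replicate 2) and 0 lower. Of 72 tested mitochondrial ribosomal protein genes 3 were called higher (mRpL39, mRpL43 and mRpS14) and 2 lower (mRpL23 and mRpL33), of which the calls of mRpL39 (adjusted p = 0.0872 without mutant replicate 2), mRpS14 (adjusted p = 0.0715 without mutant replicate 2) and mRpL23 (adjusted p = 0.107 without mutant replicate 2) ended without 1 library. The share called was 3.12% for the NADH dehydrogenase list and 6.94% for the mitochondrial ribosomal list, both under the 10.7% over all tested genes. mt:ATPase6 and mt:CoIII overlap, copies of mitochondrial sequence in the nuclear genome can share reads, and whether sequence differences between the strains' mitochondrial genomes affected mapping was not tested.

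Enzymes that process foreign or reactive compounds moved both ways. Of 29 tested glutathione S-transferase genes 7 were called higher and 4 lower, and their sum was 1800.0, 1511 and 1463 CPM in mutant libraries and 889.5, 739 and 801 CPM in wild-type libraries. GstD1 had 544, 704 and 445 CPM in mutant libraries and 217, 149 and 188 CPM in wild-type libraries (log2 1.61 ± 0.23, adjusted p = 0.0111). GstE3 had 426, 239 and 390.3 CPM in mutant libraries and 91, 44.7 and 62.8 CPM in wild-type libraries (log2 2.41 ± 0.35, adjusted p = 0.012). Both rose, as did GstD9, at 6.5 ± 1.51 CPM in the mutant and 1.99 ± 0.145 CPM in wild type (adjusted p = 0.00587), GstO2 (log2 0.89 ± 0.10, adjusted p = 0.00507) and GstT3 (log2 2.62 ± 0.28, adjusted p = 0.00489). Of the 4 that fell, GstE8 averaged 1.26 ± 0.802 CPM in the mutant and 6.99 ± 1.25 CPM in wild type (log2 -2.48 ± 0.48, adjusted p = 0.0278), and the others were GstD2, GstD4 and GstE13. Of the 11 calls 4 held in all 6 fits without 1 library, and those that ended included GstE3 (adjusted p = 0.0565 without mutant replicate 3), GstE8 (adjusted p = 0.136 without mutant replicate 3), GstD2 (adjusted p = 0.137 without wild-type replicate 2), GstD4 (adjusted p = 0.143 without mutant replicate 2) and GstE13 (adjusted p = 0.175 without mutant replicate 3).

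Of 59 tested genes whose symbol begins with Cyp, all cytochrome P450 genes or pseudogenes but for the cyclophilin gene Cyp1, 8 were called higher and 4 lower. The 2 neighbours Cyp4p1 and Cyp4p2 went opposite ways: Cyp4p1 had 2.85, 1.91 and 2.49 CPM in mutant libraries and 19.4, 19 and 22 CPM in wild-type libraries, while Cyp4p2 was near absent from wild type as given above. Cyp12c1 had 78.4, 74.6 and 73.8 CPM in mutant libraries and 24, 23.8 and 23.7 CPM in wild-type libraries (log2 1.66 ± 0.09, adjusted p = 0.000452). Cyp6d5 had 8.58, 3.65 and 4.43 CPM in mutant libraries and 48.2, 68 and 41.8 CPM in wild-type libraries (log2 -3.25 ± 0.39, adjusted p = 0.00657). Among the Cyp6a genes of 2R, Cyp6a17, Cyp6a2 and Cyp6a8 were called higher, and Cyp6a13 and Cyp6a23 lower. Cyp6a13 averaged 8.15 ± 1.62 CPM in the mutant and 23.1 ± 2.83 CPM in wild type (adjusted p = 0.00648), and Cyp6a23 averaged 0.456 ± 0.162 CPM in the mutant and 4.31 ± 3.04 CPM in wild type (log2 -3.23 ± 0.59, adjusted p = 0.0239). Cyp6a17 and Cyp6a23 are close copies, so reads can be shared. Of 10 tested UDP-glycosyltransferase genes 0 were called higher and 2 lower, the adjacent Ugt36Ba (log2 -3.10 ± 0.43, adjusted p = 0.0107) and Ugt36Bc (log2 -3.11 ± 0.30, adjusted p = 0.00333). Of the 12 Cyp calls 4 held in all 6 fits without 1 library. The calls of Cyp genes named here that ended, and that of Ugt36Ba, were Cyp6d5 (adjusted p = 0.0532 without mutant replicate 3), Cyp6a13 (adjusted p = 0.0516 without mutant replicate 3), Cyp6a2 (adjusted p = 0.102 without mutant replicate 3), Cyp6a8 (adjusted p = 0.057 without mutant replicate 2), Cyp6a23 (adjusted p = 0.112 without mutant replicate 3) and Ugt36Ba (adjusted p = 0.0606 without mutant replicate 2).

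Genes of other tissues were present in the gland libraries of both genotypes. In bulk samples, fewer cells of a type and less RNA per cell cannot be told apart. The fat body list summed to 153000.0, 95750.0 and 138500.0 CPM in mutant libraries and 111200.0, 73820.0 and 100300.0 CPM in wild-type libraries, so the sums overlapped. Of its 20 tested members 6 were called higher and 0 lower. The serum storage protein genes differed from each other. Lsp1alpha had 9539, 4939.9 and 8506 CPM in mutant libraries and 1115, 912 and 647 CPM in wild-type libraries. Its partner subunits were not called: Lsp1beta averaged 21883 ± 6589 CPM in the mutant and 13526 ± 4025 CPM in wild type (log2 0.69 ± 0.31, adjusted p = 0.199), and Lsp1gamma averaged 28082 ± 4886 CPM in the mutant and 27729.7 ± 7691 CPM in wild type (log2 0.02 ± 0.24, adjusted p = 0.969). CG4716, on the same list, had 151, 78.5 and 96.1 CPM in mutant libraries and 9.69, 4.82 and 7.33 CPM in wild-type libraries (log2 3.90 ± 0.38, adjusted p = 0.00349). The odorant-binding protein gene Obp99b had 14817, 8029.6 and 10133 CPM in mutant libraries and 3686, 2564 and 3196 CPM in wild-type libraries. The lipid droplet gene Lsd-2 (log2 0.94 ± 0.19, adjusted p = 0.0307) and the desaturase gene Desat1 also rose. Of the 4 most abundant members (Fbp1, Lsp1gamma, Lsp1beta and Obp99b) 1 was called. Of the 6 calls 2 held in all 6 fits without 1 library, and those that ended included Obp99b (adjusted p = 0.0541 without mutant replicate 3), Lsd-2 (adjusted p = 0.113 without wild-type replicate 2) and Desat1 (adjusted p = 0.0821 without wild-type replicate 2). The part of fat body content in these changes was not tested.

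Of 22 tested hemocyte genes 1 was called higher (NimC1) and 6 lower, while the list summed to 1094, 885 and 1047 CPM in mutant libraries and 1206, 832 and 1008 CPM in wild-type libraries. The hemocyte gene NimB4 had 29.3, 17.2 and 24.7 CPM in mutant libraries and 63.9, 49.7 and 55.5 CPM in wild-type libraries (log2 -1.25 ± 0.22, adjusted p = 0.0206). PPO2, a prophenoloxidase of crystal cells, averaged 3.26 ± 1.66 CPM in the mutant and 10.4 ± 1.3 CPM in wild type (log2 -1.67 ± 0.35, adjusted p = 0.0371). The scavenger receptor gene Sr-CI fell too (log2 -1.47 ± 0.31, adjusted p = 0.0368). Of 14 tested trachea genes 0 were called higher and 3 lower, and the list summed to 116, 97.0 and 83.2 CPM in the mutant and 175, 162 and 135 CPM in wild type. The third of these, beside btl and pio, was trn (log2 -1.37 ± 0.28, adjusted p = 0.032). Of 42 tested imaginal disc genes 1 was called higher and 5 lower, and the list summed to 269.6, 260.5 and 255 CPM in the mutant and 332, 311 and 264 CPM in wild type. The Hedgehog receptor gene ptc was among the lower ones (log2 -0.50 ± 0.11, adjusted p = 0.0396), as was ci. Of 24 tested muscle genes 0 were called higher and 3 lower, of 14 nervous system genes 0 higher and 1 lower, and of 10 Malpighian tubule genes 2 higher and 0 lower. The share called was 31.8% for the hemocyte list, 21.4% for the trachea list and 14.3% for the disc list. It was 12.5% for muscle, 7.14% for nervous system and 20% for Malpighian tubule genes. Over all tested genes it was 10.7%, so the disc and muscle shares were near it. With all libraries the median log2 fold change was -0.61 for the hemocyte list, -1.03 for the trachea list, -1.07 for the disc list and -1.67 for the nervous system list. Without wild-type replicates 1 and 2 these medians were -0.66, -0.74, -0.58 and 0.28, in the same order. The part of tissue content in these lists was not tested. None of the 7 hemocyte, 3 trachea and 6 disc calls held in all 6 fits without 1 library, and the highest adjusted p of the genes named here were NimC1 (adjusted p = 0.106 without wild-type replicate 2), NimB4 (adjusted p = 0.103 without mutant replicate 3), PPO2 (adjusted p = 0.157 without mutant replicate 3), Sr-CI (adjusted p = 0.145 without mutant replicate 2), trn (adjusted p = 0.134 without mutant replicate 2), btl (adjusted p = 0.0847 without wild-type replicate 3), pio (adjusted p = 0.0618 without mutant replicate 2), ptc (adjusted p = 0.174 without mutant replicate 3) and ci (adjusted p = 0.106 without mutant replicate 3).

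Most other genes of condensin and cohesin were not called. Of 17 tested genes of these complexes 0 were called higher and 2 lower (11.8% called, near the 10.7% over all tested genes). Besides Cap-D3 that was Cap-G, a condensin I subunit (log2 -0.38 ± 0.09, adjusted p = 0.0458; adjusted p = 0.15 without wild-type replicate 2). Cap-H2, the kleisin partner of Cap-D3 in condensin II, averaged 1.87 ± 0.0865 CPM in the mutant and 2.8 ± 0.697 CPM in wild type (log2 -0.59 ± 0.23, adjusted p = 0.16). SMC2, shared by both condensins, had 5.04, 1.99 and 2.39 CPM in mutant libraries and 7.44, 5.34 and 4.89 CPM in wild-type libraries (log2 -0.91 ± 0.39, adjusted p = 0.183). Cap-D2, the condensin I counterpart of Cap-D3, averaged 3.25 ± 1.87 CPM in the mutant and 5.18 ± 1.27 CPM in wild type (log2 -0.67 ± 0.42, adjusted p = 0.336). The unadjusted p was at most 0.05 for 3 of the 17, beside 29.4% of all tested genes.

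Lists tied to growth and to the polytene cell are given beside 5.71% higher and 4.96% lower over all tested genes. Of 84 tested cytoplasmic ribosomal protein genes 0 were called higher and 7 lower (8.33% called), with a median log2 fold change of -0.21, and DESeq2 called 2 higher and 22 lower. Their sum was 79240.0, 86140.0 and 80980.0 CPM in mutant libraries and 88730.0, 95420.0 and 99790.0 CPM in wild-type libraries. RpS15Aa had 908, 895 and 857 CPM in mutant libraries and 1203, 1249.7 and 1332 CPM in wild-type libraries (log2 -0.51 ± 0.09, adjusted p = 0.0215). RpS15Aa and RpS15Ab, both called lower, are close copies, so reads can be shared. Of 22 tested tRNA synthetase genes 1 was called higher, Aats-cys, with 64.5, 83.3 and 76.3 CPM in mutant libraries and 42.4, 31.1 and 37.8 CPM in wild-type libraries (log2 1.01 ± 0.16, adjusted p = 0.0159). Of 31 tested genes of the endocycle and replication 2 were called higher (Psf1 and Cdc6) and 2 lower (dap and Cdk2), 12.9% in all, near the 10.7% over all genes. Psf1, of the GINS complex that opens replication forks, had 7.74, 8.69 and 9.18 CPM in mutant libraries and 1.78, 1.58 and 1.46 CPM in wild-type libraries. Cdc6, which licenses replication origins, averaged 14.6 ± 1.44 CPM in the mutant and 10.3 ± 0.641 CPM in wild type (log2 0.50 ± 0.11, adjusted p = 0.0378). The kinase gene Cdk2 (log2 -0.50 ± 0.12, adjusted p = 0.0457) and dap, its inhibitor (log2 -0.77 ± 0.13, adjusted p = 0.0198), both fell. With 1 library left out, calls ended for RpS15Aa (adjusted p = 0.137 without mutant replicate 3), RpS15Ab (adjusted p = 0.112 without mutant replicate 3), Aats-cys (adjusted p = 0.0626 without mutant replicate 3), Cdc6 (adjusted p = 0.129 without wild-type replicate 2), Cdk2 (adjusted p = 0.16 without mutant replicate 3) and dap (adjusted p = 0.096 without mutant replicate 3).

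Of 16 tested glycolysis genes 2 were called higher and 0 lower (12.5% called, near the 10.7% over all tested genes). Pgi averaged 167 ± 42.7 CPM in the mutant and 87.3 ± 8.15 CPM in wild type (log2 0.94 ± 0.20, adjusted p = 0.0389), and Gapdh2 averaged 271 ± 29.1 CPM in the mutant and 179.9 ± 7.12 CPM in wild type (log2 0.59 ± 0.12, adjusted p = 0.0318). Of 22 autophagy and lysosome genes 1 was called higher, the kinase gene Atg1 (log2 0.47 ± 0.10, adjusted p = 0.0427), and of 20 proton pump genes 1, Vha100-1 (log2 0.78 ± 0.11, adjusted p = 0.0124). Of 30 vesicle coat and transport genes 1 was called higher (opm) and 0 lower. The share called was 4.55% for autophagy and lysosome genes, 5% for proton pump genes and 3.33% for vesicle genes, all under the share over all tested genes. Of 34 ecdysone response genes 0 were called higher and 1 lower, ImpE3, with 2.79, 2.24 and 1.73 CPM in mutant libraries and 10.1, 5.53 and 7.85 CPM in wild-type libraries (log2 -1.80 ± 0.28, adjusted p = 0.0159). No call was made among 32 proteasome genes, 39 Polycomb, trithorax and insulator genes or 11 Rbf, E2f and dREAM genes, where DESeq2 made 2, 1 and 1 and 2, 1 and 2 genes had an unadjusted p of at most 0.05. Over all tested genes 29.4% had such an unadjusted p. With 1 library left out, the calls that ended here were those of Pgi (adjusted p = 0.133 without wild-type replicate 2), Gapdh2 (adjusted p = 0.122 without wild-type replicate 2), Atg1 (adjusted p = 0.136 without wild-type replicate 2), Vha100-1 (adjusted p = 0.0633 without wild-type replicate 2), opm (adjusted p = 0.0876 without wild-type replicate 2) and ImpE3 (adjusted p = 0.0784 without mutant replicate 2).

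In several small families single members were called. Of 10 tested yellow genes 1 was called higher and 3 lower, all at low levels: yellow-g averaged 0.41 ± 0.163 CPM in the mutant and 2.03 ± 0.325 CPM in wild type (log2 -2.30 ± 0.39, adjusted p = 0.0184), yellow-e fell (log2 -3.28 ± 0.55, adjusted p = 0.0182) and yellow-f2 rose (log2 2.19 ± 0.49, adjusted p = 0.0433). Of 17 tested serpin genes, inhibitors of serine proteases, 1 rose and 1 fell (11.8%), near the 10.7% over all genes. Spn88Eb had 48.1, 35.5 and 43.4 CPM in mutant libraries and 20.5, 14.1 and 18.9 CPM in wild-type libraries (log2 1.25 ± 0.18, adjusted p = 0.013), while Spn43Ad averaged 0.0653 ± 0.0471 CPM in the mutant and 0.665 ± 0.245 CPM in wild type (log2 -3.28 ± 0.66, adjusted p = 0.0305). The sugar-binding protein gene lectin-28C averaged 67.2 ± 13.3 CPM in the mutant and 179 ± 23 CPM in wild type and fell (log2 -1.41 ± 0.19, adjusted p = 0.00932). The tetraspanin gene Tsp42Ei had 6.84, 5.12 and 4.83 CPM in mutant libraries and 0.973, 1.11 and 1.15 CPM in wild-type libraries and rose (log2 2.38 ± 0.19, adjusted p = 0.00199). The phosphate transporter gene NaPi-T of the Malpighian tubule list averaged 2.52 ± 1.35 CPM in the mutant and 0.339 ± 0.092 CPM in wild type (log2 2.89 ± 0.48, adjusted p = 0.0176), and the NPC2-type sterol-binding gene Npc2h rose as well (log2 1.19 ± 0.23, adjusted p = 0.0295). Calls that ended without 1 library were those of yellow-g (adjusted p = 0.0869 without mutant replicate 3), yellow-e (adjusted p = 0.102 without mutant replicate 3), yellow-f2 (adjusted p = 0.159 without wild-type replicate 2), Spn88Eb (adjusted p = 0.0596 without mutant replicate 3), Spn43Ad (adjusted p = 0.0946 without mutant replicate 3), lectin-28C (adjusted p = 0.0657 without mutant replicate 3), NaPi-T (adjusted p = 0.0715 without wild-type replicate 2) and Npc2h (adjusted p = 0.0926 without wild-type replicate 2).

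Called genes were spread over the genome. On the large arms the share called was 11.3% on 2L, 10.9% on 2R, 10% on 3L, 11.1% on 3R and 8.81% on X, beside 10.7% over all genes. On the small chromosome 4 it was 13 of 79 tested genes (16.5%), of which 2 were higher and 11 lower. Within 1 Mb of Cap-D3 17 of 166 genes were called (10.2%), 10 higher and 7 lower. These are descriptions without a test.

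Runs of at least 3 tested neighbours called in the same direction numbered 16, holding 52 genes, with 8 runs higher and 8 lower. On 2L CG12506, CG13946 and CG13947 (773547 to 779655) rose together. CG13947 had 1459, 1713 and 1101 CPM in mutant libraries and 84.1, 133 and 163 CPM in wild-type libraries (log2 3.49 ± 0.31, adjusted p = 0.00268). CG13946 averaged 115 ± 12.2 CPM in the mutant and 3.68 ± 0.961 CPM in wild type (log2 4.96 ± 0.24, adjusted p = 0.000452), and CG12506 averaged 29.8 ± 4.73 CPM in the mutant and 2.57 ± 0.529 CPM in wild type (log2 3.54 ± 0.21, adjusted p = 0.000738). All 3 calls held without any 1 library. On X lcs (X, 21396727 to 21397316) had 292, 481 and 338 CPM in mutant libraries and 4.3, 9.18 and 11.8 CPM in wild-type libraries (log2 5.46 ± 0.47, adjusted p = 0.00258), and its tested neighbours CG10918 and Cyp6t1 rose too. On 3R, CG42824, CG42798 and CG17283 (17406048 to 17409460) were higher. CG42798 averaged 20.1 ± 3.11 CPM in the mutant and 3.95 ± 1.6 CPM in wild type (log2 2.35 ± 0.33, adjusted p = 0.0119). Calls that ended without 1 library were those of CG10918 (adjusted p = 0.11 without wild-type replicate 1), Cyp6t1 (adjusted p = 0.0542 without wild-type replicate 2), CG42798 (adjusted p = 0.0527 without mutant replicate 3) and CG17283 (adjusted p = 0.099 without wild-type replicate 2).

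Among the runs that fell, on chromosome 4 CG31999, yellow-h and CG1674 (215009 to 245903) lay side by side. CG31999 had 3.54, 3.96 and 3.97 CPM in mutant libraries and 13.5, 13.2 and 14.1 CPM in wild-type libraries (log2 -1.83 ± 0.09, adjusted p = 0.000452). yellow-h averaged 0.502 ± 0.16 CPM in the mutant and 3.3 ± 0.665 CPM in wild type (log2 -2.71 ± 0.33, adjusted p = 0.00648). The longest runs that fell had 4 genes. One was CG5867, CG16820, CG31728 and CG44085 on 2L (13236494 to 13284043), and CG44085 averaged 0.828 ± 0.0737 CPM in the mutant and 3.01 ± 0.203 CPM in wild type (log2 -1.86 ± 0.19, adjusted p = 0.00408). The other was CG42402, Gfat1, CG12581 and CR33294 on 3R (4077939 to 4196210). Gfat1, the first enzyme of the hexosamine pathway, had 50.9, 55 and 48.1 CPM in mutant libraries and 88.3, 80.6 and 96.7 CPM in wild-type libraries (log2 -0.79 ± 0.12, adjusted p = 0.013). On 3L, CG33271, CG33270 and rt (11577006 to 11587770) fell, while CG33267 close by was higher in mutant glands. CG33271 averaged 0.549 ± 0.0737 CPM in the mutant and 5.43 ± 2.12 CPM in wild type (log2 -3.30 ± 0.36, adjusted p = 0.00512). Also on 3L, CG32437 had 0, 1 and 0 counts in mutant libraries and 107, 79 and 100 counts in wild-type libraries, next to the lower ebd2 and CG12971. Calls in these runs that ended without 1 library included those of CG1674 (adjusted p = 0.116 without mutant replicate 3), CG5867 (adjusted p = 0.0987 without mutant replicate 3), CG16820 (adjusted p = 0.159 without mutant replicate 3), CG31728 (adjusted p = 0.183 without mutant replicate 3), CG42402 (adjusted p = 0.16 without mutant replicate 3), Gfat1 (adjusted p = 0.0774 without mutant replicate 3), CG12581 (adjusted p = 0.152 without mutant replicate 3), CR33294 (adjusted p = 0.0647 without mutant replicate 2), rt (adjusted p = 0.107 without mutant replicate 3), ebd2 (adjusted p = 0.0966 without mutant replicate 3) and CG12971 (adjusted p = 0.0899 without wild-type replicate 2).

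The genes of smallest adjusted p that are not described above were mostly of even level within each genotype. CR43461, a non-coding gene on X within CG3168 on the opposite strand, had 32.7, 34.2 and 38.5 CPM in mutant libraries and 1.62, 1.55 and 1.67 CPM in wild-type libraries (log2 4.44 ± 0.11, adjusted p = 5.42e-05). CG11885 averaged 26.1 ± 0.207 CPM in the mutant and 7.07 ± 0.461 CPM in wild type (log2 1.88 ± 0.09, adjusted p = 0.000362), and CG10175 averaged 16 ± 1.45 CPM in the mutant and 2.9 ± 0.115 CPM in wild type (log2 2.46 ± 0.11, adjusted p = 0.000311). The serine protease homologue gene SPH93 had 5.86, 3.39 and 4.45 CPM in mutant libraries and 90.7, 94 and 87.6 CPM in wild-type libraries (log2 -4.31 ± 0.23, adjusted p = 0.000551). CG10650 had 1.13, 1.22 and 1.08 CPM in mutant libraries and 67.9, 136 and 70.5 CPM in wild-type libraries (log2 -6.32 ± 0.37, adjusted p = 0.000684). CG11893 (log2 -3.93 ± 0.18, adjusted p = 0.000383), CG5999 (adjusted p = 0.00064, at 2.15 ± 0.453 CPM in the mutant and 34.4 ± 6.71 CPM in wild type) and the sarcoglycan gene Scgalpha (log2 -3.30 ± 0.19, adjusted p = 0.000646) fell. Leaving out any 1 library ended none of these calls. Among other lower genes was the ionotropic receptor gene Ir93a, with 1, 1 and 0 counts in mutant libraries and 121, 71 and 100 counts in wild-type libraries. Of 288 tested genes whose symbol marks non-coding RNA, 29 were called higher and 29 lower.

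The deposited comparison gave more lower genes than the refit. At a false discovery rate under 0.05 and a log2 change over 1 either way, the authors' deposited table lists 484 genes higher in the mutant and 1297 lower, of 11021. At a change of at least 2-fold the refit called 309 higher and 321 lower. The deposited table holds a likelihood ratio score, and with that kind of test the refit gave 755 lower genes of any size of change. Of the 1296 lower genes matched by identifier, 413 (31.9%) had wild-type replicate 3 not above all mutant libraries. Of the 484 higher genes that the authors' deposited table lists, 9 (1.86%) had wild-type replicate 3 not below all mutants. The lower genes of the authors' deposited table held 194 of the 196 genes picked for being high in wild-type replicate 2. The rule for those 196 already places that replicate far above every mutant library. In the refit 317 of the lower genes and 295 of the higher genes were called, and 430 and 53 were not tested. Those untested did not reach the count limit in at least 3 libraries, which can also happen to genes high in 1 or 2 libraries. For Jon65Aiv the authors' deposited table gives a log2 fold change of -11.21 at a false discovery rate of 4.05e-08, where the refit gave log2 -11.18 ± 2.92, adjusted p = 0.0627. For Cap-D3 the authors' deposited table gives -6.37, beside -6.33 in the refit.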

How the data were processed

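Raw counts per gene were deposited as whole numbers for 11 libraries. The submitters' processing notes name, with no role, the build BDGP6, the aligners TopHat2 2.0.8b and BWA, the read tools Trim Galore 0.3.3 and FastQC 0.11.3, and also HTSeq 0.6.1 and Picard 1.119. The step each aligner served, the strand setting and how shared reads were counted were not given in the sources used here. The authors' deposited table holds log2 fold changes, mean log2 CPM, a likelihood ratio score, p-values and false discovery rates, per the file headers, and was used for the closing comparison of the report alone.

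Of the 16034 entries with counts, 11021 carried a symbol, and 4837 others were named by their position in the BDGP6 annotation. The 6 salivary libraries were fitted with edgeR 4.0.16 (R 4.3.3) after its filter on low counts, which keeps genes with enough counts in at least 3 libraries. The quasi-likelihood F-test was used with robust dispersions and Benjamini-Hochberg adjustment, and standard errors are the log2 fold change divided by the root of F. Wing disc libraries were fitted separately. DESeq2 1.42.0, other scaling, filters and covariates and each library left out were alternatives. Counts were also simulated (9453 genes tested), all genes having the common spread of this comparison (coefficient of variation 0.328). There, 92% of 100 genes changed 4-fold and 15% of 100 changed 2-fold were called, with 6 false calls. Real genes differ in spread, so these rates need not hold for single genes. The motif search planned for promoters was not run, since no promoter sequences were used here.

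The members and lists were chosen with earlier results of these data known. Genes were named by rule: the 15 largest changes per direction at a mean of at least 5 CPM, the 10 largest differences in CPM, the 10 smallest adjusted p per direction, on-off genes, long runs, up to 4 called members per list or 2 uncalled, and the 10 most abundant genes. Chosen after their values were seen were CG13461, CG18581, CG32074, CG43678, CG5921, Cap-D2, Cap-H2, CecA1, CecC, CrebA, Cyp6a13, Cyp6a2, Cyp6a23, Cyp6d5, Desat1, DnaJ-1, Drs, GstD2, GstD4, GstE13, GstE3, GstE8, Hop, Hsc70-3, Hsc70-4, Hsc70-5, Hsf, Hsp27, Hsp60, Hsp70Ba, Lsd-2, LysB, Mtk, NimC1, PPO2, SMC2, Sgs1, Sr-CI, TotA, alphaTry, fkh, mRpL23, mag, mt:Cyt-b, mt:ND3, mt:ND4, mt:ND4L, mt:ND5, mt:lrRNA, ng1, ng3, ptc, sage and sens.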

Additional observations from a re-analysis of the deposited data

Results flagged for a closer look

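Of 220 named genes with a call in the gland, 11 went the other way in wing discs. In each tissue their mutant libraries lay wholly on 1 side of the wild-type libraries. Among all genes tested in wing discs, 14.4% were higher and 11.7% lower in the mutant without overlap. Of the genes given a wing fold change below, none was called in wing discs, the lowest adjusted p there being 0.283 (Cyp6a23). These differences between tissues were not tested, and the wing libraries were made by another library method. Values are log2 fold changes of mutant over wild type unless a level is named.

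Cyp4p1, a cytochrome P450 gene, was at -3.06 in the gland and 3.82 in wing discs, with 31.1 and 28.9 CPM in mutant and 0.59, 4.96 and 0.882 CPM in wild-type discs. Its relative Cyp6a23 was at -3.23 in the gland (adjusted p = 0.112 without mutant replicate 3) and 1.61 in wing discs. CecC, a cecropin gene, was at -1.07 in the gland (adjusted p = 0.159 without mutant replicate 3) and 4.79 in wing discs, with 1.07 and 0.467 CPM in mutant and 0.0159, 0.0819 and 0 CPM in wild-type discs. The attacin gene AttD was at -4.49 in the gland (adjusted p = 0.0993 without mutant replicate 2), and in wing discs it averaged 0.192 CPM in the mutant and 0.0164 CPM in wild type. The pseudogene CR33294 was at -2.94 in the gland (adjusted p = 0.0647 without mutant replicate 2) and 0.738 in wing discs. ImpE3 was at -1.80 in the gland (adjusted p = 0.0784 without mutant replicate 2) and 0.708 in wing discs, and Parp, a DNA repair gene, at -0.51 (adjusted p = 0.119 without mutant replicate 3) and 0.369.

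The other 4 were higher in mutant glands and lower in mutant wing discs. The tetraspanin gene Tsp42Ei was at 2.38 in the gland and -0.698 in wing discs. Gapdh2 was at 0.59 in the gland (adjusted p = 0.122 without wild-type replicate 2) and -0.398 in wing discs, and Cdc6 at 0.50 (adjusted p = 0.129 without wild-type replicate 2) and -0.151. yellow-f2 rose in the gland (adjusted p = 0.159 without wild-type replicate 2), and in wing discs it averaged 0.0655 CPM in the mutant and 0.152 CPM in wild type.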

How the results depend on the processing

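No paired analysis was possible because the labels give the genotypes no shared replicate numbers. Against 514 higher and 447 lower calls, 630 of them at least 2-fold, DESeq2 gave 1115 higher, 1139 lower and 1272 at least 2-fold, and held 960 of the 961. The gut level as a covariate gave 133 higher, 148 lower and 255 at least 2-fold. Leaving out wild-type replicates 1 and 2 gave 48, 44 and 92, with 1 wild-type library left. The likelihood ratio test gave 755 lower and 1032 at least 2-fold, and no filter gave 293 lower. With 1 library left out, higher calls ranged from 186 to 489, lower calls from 103 to 582 and 2-fold calls from 270.0 to 768. On-off genes, 11 with all libraries, ranged from 10 to 65, the highest without wild-type replicate 3. The 16 runs became 67 with DESeq2, 0 without wild-type replicates 1 and 2, 3 at a length of at least 4, and 4 to 16 with 1 library left out. The 17 calls within 1 Mb of Cap-D3 became 38 with DESeq2, 1 without wild-type replicates 1 and 2, and 4 to 16 with 1 library left out. The causes of these shifts were not tested. Higher calls made up 53.5% of all calls. That share was 40.3% in the fit lacking wild-type replicate 3, and 64.3% and 66.8% in the fits lacking mutant replicates 2 and 3. No called gene named in the text changed direction under any alternative run. For the fits that left out libraries, the lack of overlap between genotypes fixed the direction beforehand. Of 220 named genes with a call, 84 kept it in all 6 fits without 1 library, and 98 with the gut covariate. With 3 libraries a group and the simulated common spread, changes of 2-fold were often missed. Genes under the count filter were not tested.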
